A study of Mus musculus with 8 samples.

Results

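The Slit, netrin and ephrin systems are the axon guidance families that epithelia also use to position and separate cells. They were followed here in basal cells sorted from the mouse mammary gland, which form the contractile outer layer of its ducts. The 39 genes were chosen by name: 3 Slits and 4 Robo receptors, 4 netrins and 6 netrin receptors, 14 Eph receptors and 8 ephrins. All 39 were found by Entrez identifier among the 27164 genes of the count tables, and 32 passed the filter on low counts. Cells came from 10-week-old female C57BL/6 mice carrying the Lgr5-GFP-IRES-CreERT2 allele, which places green fluorescent protein under the control of the Lgr5 locus. Lgr5 binds R-spondins and is a stem cell marker in the intestine and other epithelia, and Tspan8 (T8) is a tetraspanin of the cell surface. Cells with high Tspan8 were sorted as Lgr5+T8hi or Lgr5-T8hi and cells without it as Lgr5+T8- or Lgr5-T8-, all 4 populations untreated and with the allele present. Each population had 2 RNA-seq libraries, replicate 1 from batch 1 and replicate 2 from batch 2. Whether replicate libraries stem from separate mice or from pooled ones is not stated in the labels; the p-values therefore reflect only how far these libraries differ, which may be technical.

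Slits are large secreted proteins that repel cells through Robo receptors. Netrins are laminin-related secreted proteins that attract through Dcc and neogenin (Neo1) and repel through Unc5 receptors. Eph receptors are tyrosine kinases whose ligands, the ephrins, sit on the neighbouring cell, ephrin-As on a lipid anchor and ephrin-Bs on a transmembrane stem, and signals run into both cells. In the mammary gland, netrin-1 and neogenin hold the basal precursor layer of growing ducts together, Slit and Robo1 restrain branching, and Epha2 takes part in ductal outgrowth.

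Total counts ran from 24571300 to 38384875 per library. Levels are given as CPM, counts scaled to normalised library sizes, where 3 counts amount to 0.0799 to 0.120 CPM (counting error only). Basal identity genes were present throughout, with Krt5 between 2106 and 2753 CPM and Trp63 between 173 and 350 CPM. Tspan8 stood at 150 to 289 CPM in the T8hi libraries and 3.16 to 10.6 CPM in the T8- libraries. Lgr5 stood at 174 to 212 CPM in the Lgr5+ libraries, but also at 119 and 129 CPM in Lgr5-T8hi and 58.4 and 50.5 CPM in Lgr5-T8- cells, so the Lgr5- gates were not free of Lgr5 transcripts. Averaged over the Lgr5 classes, marker genes of other cell types rose with Tspan8. Higher were 19 of 24 luminal, 8 of 15 endothelial, 11 of 15 fibroblast, 8 of 10 pericyte, 8 of 15 immune and 3 of 10 Schwann and glial markers tested. Of 20 basal markers, 1 was higher and 10 lower, where 9.13% and 5.52% of all genes tested were called in these directions. Endothelial, pericyte and immune markers were called higher within Lgr5+ cells only, at 15 of 15, 8 of 10 and 11 of 15 (7.27% of all genes tested). Within Lgr5- cells none of them was called. With Lgr5, 7 fibroblast markers were higher and 2 lower, 6 luminal higher and 4 lower, 5 basal higher and 4 lower, and 3 pericyte and 4 Schwann and glial markers lower. Over all genes tested, 4.23% were higher and 4.86% lower with Lgr5. Averaged over the T8 classes, none of the endothelial or immune markers was called with Lgr5 by edgeR. At an unadjusted edgeR p under 0.05 were 1 and 5 of them. Within T8hi cells, 4 endothelial and 8 immune markers were higher in Lgr5+ cells (2.29% of all genes tested), with log2 medians of 1.14 and 1.37. Within T8- cells, 3 endothelial markers and no immune marker were lower (5.05% of all genes tested), with medians of -0.775 and -0.44. In replicates 1 and 2, endothelial markers summed to 720.0 and 818 CPM in Lgr5+T8hi, 248 and 459 CPM in Lgr5-T8hi, 229 and 178 CPM in Lgr5+T8- and 319.5 and 348 CPM in Lgr5-T8- cells. The fibroblast markers summed to 1425 and 1708, 1181 and 1014, 589 and 625, and 798 and 974 CPM in the same order. Luminal markers summed to 2826 and 2145, 2583 and 1900.4, 2351 and 1509, and 1624 and 1243 CPM. None of these markers was at 0 in any library except 1 immune gene in each of 2 libraries, and the part of such cells in the results below was not tested unless a value is given. In bulk RNA, fewer cells of a type and less RNA per cell cannot be told apart.

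The promoters of 3 members are shown first, because these genes stand for the 3 patterns described below: Ntn4, highest where Lgr5 and Tspan8 were high, Slit2, lowest there, and Robo4, highest in 1 population. Sequences are from RefSeq (GRCm38.p6), 250 bases before to 50 after a transcript start, on the gene's own strand. The listed start nearest to the 5′ end of the gene was used, which for Ntn4 is that end, and for Slit2 and Robo4 lies 1864 and 70 bases inside the gene. Capitals mark the GC-box letters GGGCGG and the TCF/LEF core CTTTGA, each searched on both strands, where neighbouring matches can overlap.
Ntn4, chr10:93640799-93641098, plus strand: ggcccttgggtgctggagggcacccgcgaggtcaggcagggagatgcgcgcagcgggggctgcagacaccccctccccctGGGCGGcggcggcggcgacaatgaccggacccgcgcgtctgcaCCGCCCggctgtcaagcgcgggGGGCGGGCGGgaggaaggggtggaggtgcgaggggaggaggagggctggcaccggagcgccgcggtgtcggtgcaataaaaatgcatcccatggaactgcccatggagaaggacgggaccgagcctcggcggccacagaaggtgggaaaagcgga
Slit2, chr5:47982905-47983204, plus strand: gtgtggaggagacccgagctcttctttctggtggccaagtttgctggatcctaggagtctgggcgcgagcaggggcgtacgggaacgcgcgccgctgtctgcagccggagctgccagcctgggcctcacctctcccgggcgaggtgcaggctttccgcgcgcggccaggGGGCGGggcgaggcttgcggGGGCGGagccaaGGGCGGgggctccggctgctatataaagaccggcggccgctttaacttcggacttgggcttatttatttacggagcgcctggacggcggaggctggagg
Robo4, chr9:37401722-37402021, plus strand: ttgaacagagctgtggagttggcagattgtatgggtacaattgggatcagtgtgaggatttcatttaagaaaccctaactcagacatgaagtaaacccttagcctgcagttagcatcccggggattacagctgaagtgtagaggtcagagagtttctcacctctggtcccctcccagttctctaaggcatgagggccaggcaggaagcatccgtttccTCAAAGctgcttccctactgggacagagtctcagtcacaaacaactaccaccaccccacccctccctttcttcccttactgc
The Ntn4 promoter held 31 CG dinucleotides and 4 GC-boxes and that of Slit2 30 and 3. Any relation of these numbers to the levels was not tested. That of Robo4 held 2 CG dinucleotides, 0 GC-boxes and 1 TCF/LEF match. Promoters were listed for 34 members, of which 17 began exactly at the gene's 5′ end and that of Robo1 lay 635631 bases inside the gene. Of the 29 among them that were tested, 20 held a GC-box (69%, against 61.5% of 12194 promoters of all genes tested) and 2, Robo4 and Epha2, held the TCF/LEF core (6.9% against 12.1%). The median number of CG dinucleotides was 23 in these members and 20 over all genes tested. Searched in the same 29 promoters were also the TEAD letters GGAATG, held by 5 (17.2% against 12.4%), and the E-box letters CANNTG, held by 11 (37.9% against 64.3%). A match describes letters in this window and is not a site of binding.

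Levels of different genes can be compared only per length, so CPM per kilobase of gene length in the tables were used for the make-up of each family. Epha2, the receptor kinase best known in epithelia, had the highest level of all 39 genes, with a mean of 208 CPM per kilobase, above 98.1% of the genes tested. It made up 85.5 to 90.8% of the EphA transcripts of a library. Among the ligands, Efnb1 (59.3 CPM per kilobase) and Efna1 (58.5) were highest on average and led their families, with 53.9 to 75.0% of the ephrin-Bs and 62.8 to 76.6% of the ephrin-As. The EphB receptors were shared more evenly between Ephb3 (27.3 to 35.6%), Ephb4 (22.2 to 29.7%), Ephb6, whose kinase is inactive (18.4 to 28.2%), and Ephb1 (13.7 to 22.2%). Ntn4 made up 82.0 to 93.4% of the netrins and Slit3 61.5 to 79.8% of the Slits. Robo1 held 55.1 to 77.7% of the Robos, and Neo1 (54.9 to 68.5%) and Unc5b (30.7 to 44.9%) nearly all of the netrin receptors. The netrin receptor most studied in neurons, Dcc, had a highest count of 5 in any library. The other members left out by the filter were Robo3 and Unc5d, both with a highest count of 6, Epha5 with 5, Ntn5 with 3, and Epha6 and Epha10 with 1 each. Slit1, Unc5a and Epha8 passed the filter with highest counts of 14, 19 and 13, so their levels are imprecise.

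**Figure D1:**
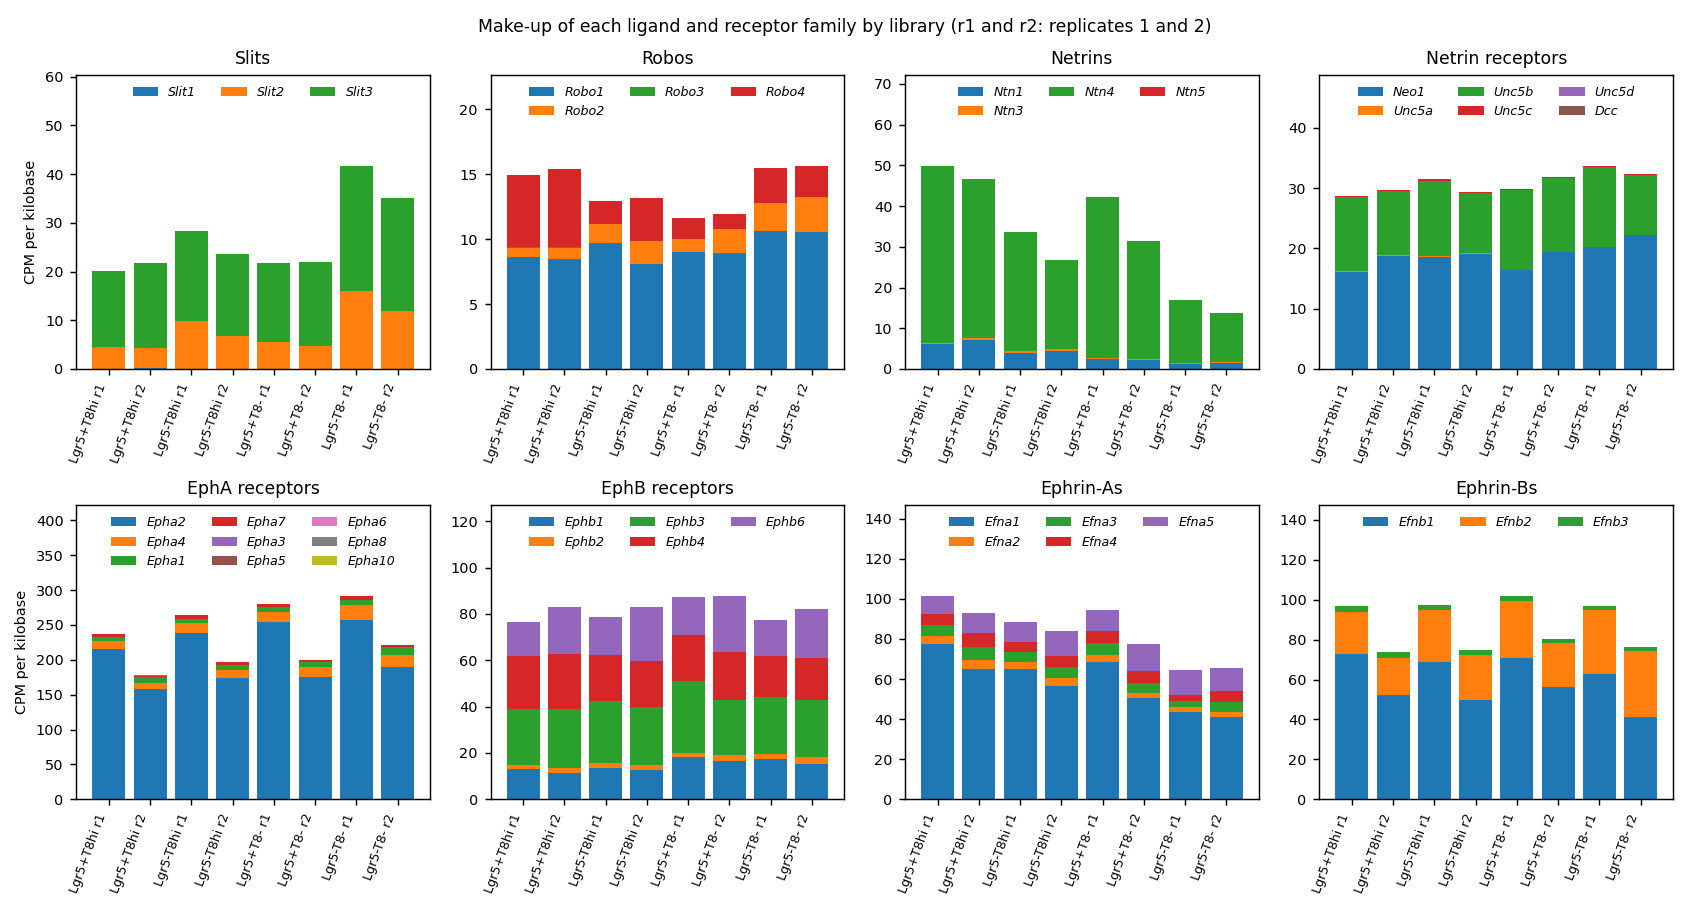
Stacked bars give the level of each member, in CPM per kilobase, in each of the 8 libraries, with 1 panel per ligand or receptor family. The netrin bars run from 13.8 to 49.9 and are lowest in the Lgr5-T8- libraries, the Slit bars run from 20.1 to 41.7 and are highest there, and the EphB bars stay between 76.3 and 87.6.

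Effects were estimated with edgeR over all 8 libraries with batch in the model, as log2 fold changes ± standard error, with p-values adjusted over all 16526 genes tested and a threshold of 0.05. The Tspan8 effect sets the T8hi against the T8- populations and the Lgr5 effect the Lgr5+ against the Lgr5- populations, both averaged over the other marker and from the same libraries. With Tspan8, 8 of the 32 members rose and 6 fell, where 9.13% and 5.52% of all genes tested were called in these directions (14.6% in all). With Lgr5, 3 rose and 7 fell, against 4.23% and 4.86% (9.09% in all). Earlier results of these data were known when the members were chosen, so these counts are not independent of the data. The median effect over the 32 members was -0.03 for Tspan8 and -0.11 for Lgr5, and -0.02 and 0.01 over all genes tested. Of 14 ligand genes tested, 8 were called with Tspan8 and 6 with Lgr5, and of 18 receptor genes 6 and 4. Called in at least 1 of the 7 comparisons between populations were 17 members, and 15 were called in none, where 21.4% of all genes tested were called in at least 1. Leaving out any 1 library kept the call of 9 of the 14 members for Tspan8 and of 5 of the 10 for Lgr5. How many of all genes called were kept in this way was not counted. The fit without batch kept Ntn1, Robo4, Epha3 and Epha4 of the Tspan8 calls and Ntn1, Ntn4 and Slit2 of the Lgr5 calls.

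**Figure D2:**
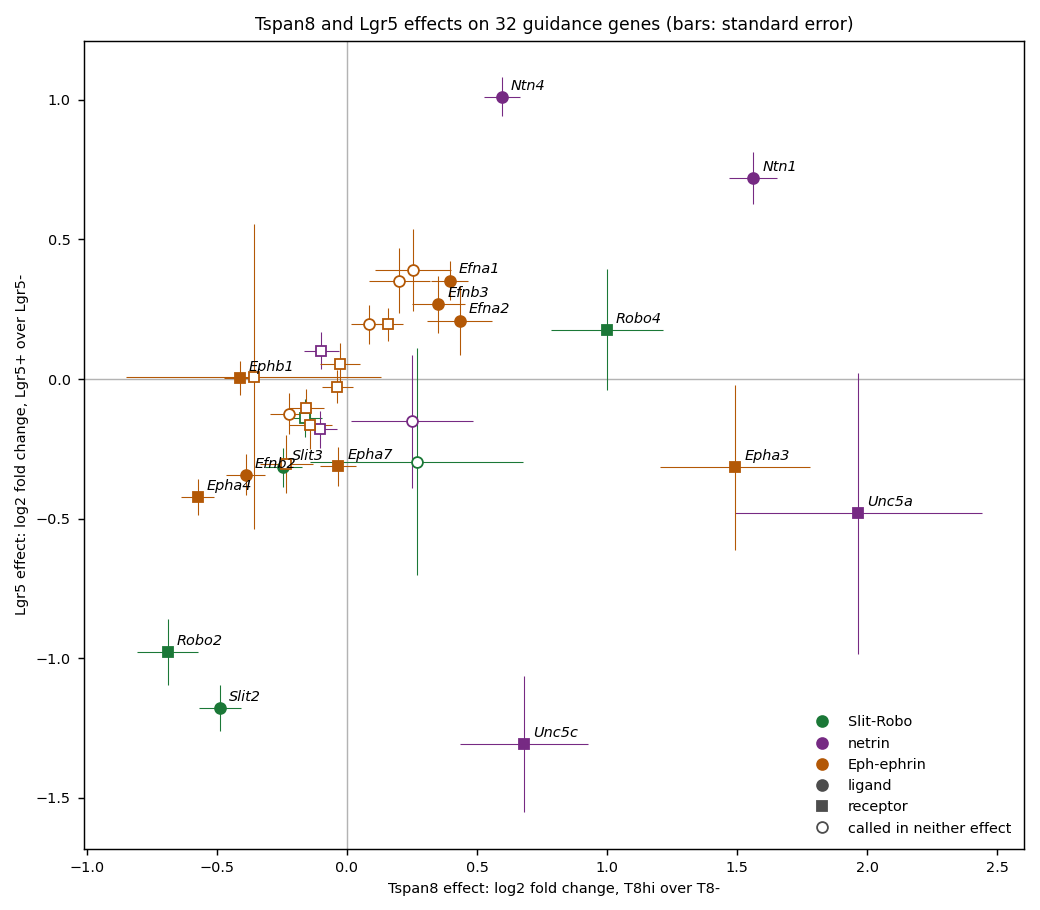
Each point is a member, with its log2 fold change ± standard error for Tspan8 (T8hi over T8-) on the horizontal and for Lgr5 (Lgr5+ over Lgr5-) on the vertical axis. Filled points were called in at least 1 of the 2 effects. Ntn1 (1.56 and 0.72) and Ntn4 (0.60 and 1.01) lie highest at the upper right and Slit2 (-0.49 and -1.18) and Robo2 (-0.69 and -0.98) lowest at the lower left.

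Of the 3 netrin ligands tested, Ntn1 and Ntn4 rose with both markers. Ntn1 (chromosome 11, 68209364 to 68386826, GRCm38.p6) encodes netrin-1. Its level in replicates 1 and 2 was 34.6 and 40.4 CPM in Lgr5+T8hi, 23.1 and 25.8 CPM in Lgr5-T8hi, 14.5 and 12.5 CPM in Lgr5+T8- and 6.85 and 8.60 CPM in Lgr5-T8- cells. Every T8hi library lay above every T8- library, and within each T8 class both Lgr5+ libraries lay above both Lgr5- libraries, so the 4 populations formed an order with no overlap. The Tspan8 effect was 1.56 ± 0.09, a 2.95-fold difference (edgeR adjusted p = 1.69e-06), and the Lgr5 effect 0.72 ± 0.09 (edgeR adjusted p = 4.08e-04). Within batch 1 and batch 2 alone the Tspan8 difference was 1.495 and 1.63 and the Lgr5 difference 0.83 and 0.59. The Tspan8 difference was 1.46 ± 0.13 within Lgr5+ and 1.66 ± 0.13 within Lgr5- cells, and their difference was -0.21 ± 0.18 (edgeR adjusted p = 0.776).

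Ntn4 (chromosome 10, 93641049 to 93745972) encodes netrin-4, a netrin of basement membranes that binds laminin. It stood at 105 and 94.6 CPM in Lgr5+T8hi, 70.5 and 53.1 CPM in Lgr5-T8hi, 95.4 and 69.7 CPM in Lgr5+T8- and 37.1 and 28.9 CPM in Lgr5-T8- cells. The Lgr5-T8- libraries were lowest, while the Lgr5-T8hi and Lgr5+T8- libraries overlapped. Its Lgr5 effect was 1.01 ± 0.07 (edgeR adjusted p = 5.59e-06), larger than its Tspan8 effect of 0.60 ± 0.07 (edgeR adjusted p = 1.21e-04). The Tspan8 difference was 0.90 ± 0.10 within Lgr5- cells (edgeR adjusted p = 1.68e-04) and 0.29 ± 0.10 within Lgr5+ cells (edgeR adjusted p = 0.0887). These differed by -0.61 ± 0.14 (edgeR adjusted p = 0.0371), the 1 call among the 32 members in that comparison, where 2.55% of all genes tested were called (2.18% above and 0.363% below 0). The call passed the threshold when Lgr5-T8- replicate 2 was left out and not when any of the other 7 libraries was, with values of -0.75 to -0.45 (edgeR adjusted p = 0.0502 to 0.264). Ntn3, which encodes another secreted netrin, was at 1.20 to 2.23 CPM with effects of 0.25 ± 0.24 and -0.15 ± 0.24.

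The netrin receptors with appreciable levels differed little between populations. Neo1, which encodes neogenin, ran from 119 to 164 CPM, with a Tspan8 effect of -0.10 ± 0.07 and a Lgr5 effect of -0.18 ± 0.07 (edgeR adjusted p = 0.351 and 0.119). Unc5b ran from 58.2 to 78.5 CPM, with effects of -0.10 ± 0.07 and 0.10 ± 0.07 (edgeR adjusted p = 0.378 and 0.406). The receptors that were called were the rare ones. Unc5c stood at 1.33 and 1.40 CPM in Lgr5+T8hi, 3.02 and 1.39 CPM in Lgr5-T8hi, 0.567 and 0.518 CPM in Lgr5+T8- and 2.21 and 1.98 CPM in Lgr5-T8- cells. The Lgr5+T8- libraries were lowest, and 1 Lgr5-T8hi library lay within the range of the Lgr5+T8hi libraries. Its Lgr5 effect was -1.31 ± 0.24 (edgeR adjusted p = 0.00515, 0.0586 without Lgr5+T8hi replicate 1), and its Tspan8 effect of 0.68 ± 0.25 missed the threshold (edgeR adjusted p = 0.0892, 0.0245 without Lgr5-T8hi replicate 2). Unc5a, at 0.288 and 0.719, 0.385 and 0.426, 0.0315 and 0.120, and 0.182 and 0.147 CPM in the order of populations used above, was higher in every T8hi than in every T8- library. Its Tspan8 effect was 1.97 ± 0.47 (edgeR adjusted p = 0.0149), lost without replicate 2 of Lgr5+T8hi or replicate 1 of Lgr5-T8hi or Lgr5+T8- cells (edgeR adjusted p = 0.0564 to 0.114). These are counts of 1 to 19, and 34 bases of the Unc5a exons are shared with Hk3 on the other strand (GENCODE M21), which had 1 to 10 counts.

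Slit2 and its receptor Robo2 moved against the netrins. Slit2 (chromosome 5, 47981291 to 48307735) stood at 35.1 and 34.3 CPM in Lgr5+T8hi, 78.1 and 54.4 CPM in Lgr5-T8hi, 43.3 and 38.0 CPM in Lgr5+T8- and 128 and 95 CPM in Lgr5-T8- cells. All 4 Lgr5+ libraries lay below all 4 Lgr5- libraries, with the Lgr5-T8- libraries highest. The Lgr5 effect was -1.18 ± 0.08 (edgeR adjusted p = 6.47e-06) and the Tspan8 effect -0.49 ± 0.08 (edgeR adjusted p = 0.00169). The Tspan8 difference was -0.75 ± 0.11 within Lgr5- cells (edgeR adjusted p = 0.00153) and -0.22 ± 0.12 within Lgr5+ cells (edgeR adjusted p = 0.32), but the difference between these, 0.53 ± 0.16, missed the threshold (edgeR adjusted p = 0.148).

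Slit3 (chromosome 11, 35121456 to 35708507), the Slit with the highest level, was at 78.2 and 86.8 CPM in Lgr5+T8hi, 92.0 and 83.3 CPM in Lgr5-T8hi, 81.6 and 85.3 CPM in Lgr5+T8- and 128 and 115 CPM in Lgr5-T8- cells. The Lgr5-T8- libraries stood above the other 6, which overlapped. Its effects were -0.32 ± 0.07 for Lgr5 and -0.24 ± 0.07 for Tspan8 (edgeR adjusted p = 0.0149 and 0.0365). The Lgr5 call was lost without replicate 1 of Lgr5+T8hi, Lgr5-T8hi or Lgr5+T8- cells (edgeR adjusted p = 0.0779 to 0.12), and the Tspan8 call without any library except Lgr5+T8hi replicate 2 or Lgr5-T8- replicate 2 (edgeR adjusted p = 0.0753 to 0.231) and with a filter of 1 CPM in 4 libraries (0.0538). Within T8- cells the Lgr5 difference was -0.54 ± 0.10 (edgeR adjusted p = 0.00474, 0.0591 without Lgr5+T8- replicate 1). Slit1 was at 0.157 to 0.530 CPM and was called in none of the 7 comparisons.

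Slit2 and Slit3 each carry, in an intron and on their own strand, a copy of the microRNA gene that yields miR-218-5p, shown here because both hosts were highest in Lgr5-T8- cells. The lines give the mature sequence from RefSeq (GRCm38.p6) with its seed, bases 2 to 8, in capitals.
miR-218-5p from Mir218-1 in Slit2, chr5:48223966-48223986: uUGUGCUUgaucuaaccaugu
miR-218-5p from Mir218-2 in Slit3, chr11:35616840-35616860: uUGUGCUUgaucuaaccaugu
Both copies are identical, seed included. The microRNA itself was not measured in these libraries of gene counts.

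Among the receptors of the Slits, Robo2 (chromosome 16, 73891976 to 75447443) fell with both markers. Its level was 5.51 and 6.96 CPM in Lgr5+T8hi, 11.9 and 14.5 CPM in Lgr5-T8hi, 7.62 and 14.8 CPM in Lgr5+T8- and 17.6 and 21.9 CPM in Lgr5-T8- cells. Lgr5+T8hi was lowest and Lgr5-T8- highest, and the Lgr5+T8- libraries lay on either side of the Lgr5-T8hi libraries. The Lgr5 effect was -0.98 ± 0.12 and the Tspan8 effect -0.69 ± 0.12 (edgeR adjusted p = 2.88e-04 and 0.00191). Robo1, the most abundant Robo, varied from 60.9 to 80.2 CPM, with effects of -0.14 ± 0.07 and -0.16 ± 0.07 that missed the threshold (edgeR adjusted p = 0.245 and 0.135).

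Robo4, the Robo of blood vessel endothelium, had a pattern of its own. It stood at 20.5 and 22.1 CPM in Lgr5+T8hi, 6.37 and 12.1 CPM in Lgr5-T8hi, 6.05 and 4.15 CPM in Lgr5+T8- and 9.94 and 8.79 CPM in Lgr5-T8- cells. The Lgr5+T8hi libraries were far above the others, and the Lgr5-T8hi and Lgr5-T8- libraries overlapped. Its Tspan8 effect was 1.00 ± 0.22 (edgeR adjusted p = 0.0237), lost without either Lgr5+T8hi or either Lgr5-T8- library (edgeR adjusted p = 0.0878 to 0.148) and without the count filter (0.0728). The difference was 2.04 ± 0.31 within Lgr5+ cells (edgeR adjusted p = 0.00793, 0.053 to 0.0719 without any 1 of the same 4 libraries) and -0.04 ± 0.30 within Lgr5- cells (edgeR adjusted p = 0.967). The difference between these was 2.08 ± 0.43 and missed the threshold in edgeR (adjusted p = 0.0703), while DESeq2 and limma-voom called it (adjusted p = 8.78e-06 and 0.0414), as did edgeR without either Lgr5-T8hi library or Lgr5+T8- replicate 1 (adjusted p = 2.37e-05 to 0.0307). The endothelial marker sum given above was likewise highest in Lgr5+T8hi cells and, within each batch, lowest in Lgr5+T8- cells. Of the 15 markers in that list, Pecam1, which encodes the endothelial adhesion molecule CD31, was at 124 and 138, 31.8 and 73.4, 32.3 and 25.2, and 38.4 and 47.7 CPM in the same order. Kdr, another of them, was at 17.1 and 25.5, 6.78 and 12.6, 6.49 and 3.99, and 16.6 and 15.8 CPM. The level of Robo4 per 100 CPM of Pecam1 was 16.6 and 16.0 in Lgr5+T8hi, 20.1 and 16.5 in Lgr5-T8hi, 18.8 and 16.4 in Lgr5+T8- and 25.9 and 18.4 in Lgr5-T8- cells. This ratio was formed with 1 marker, and the part of endothelial cells in the Robo4 result was not tested.

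**Figure D3:**
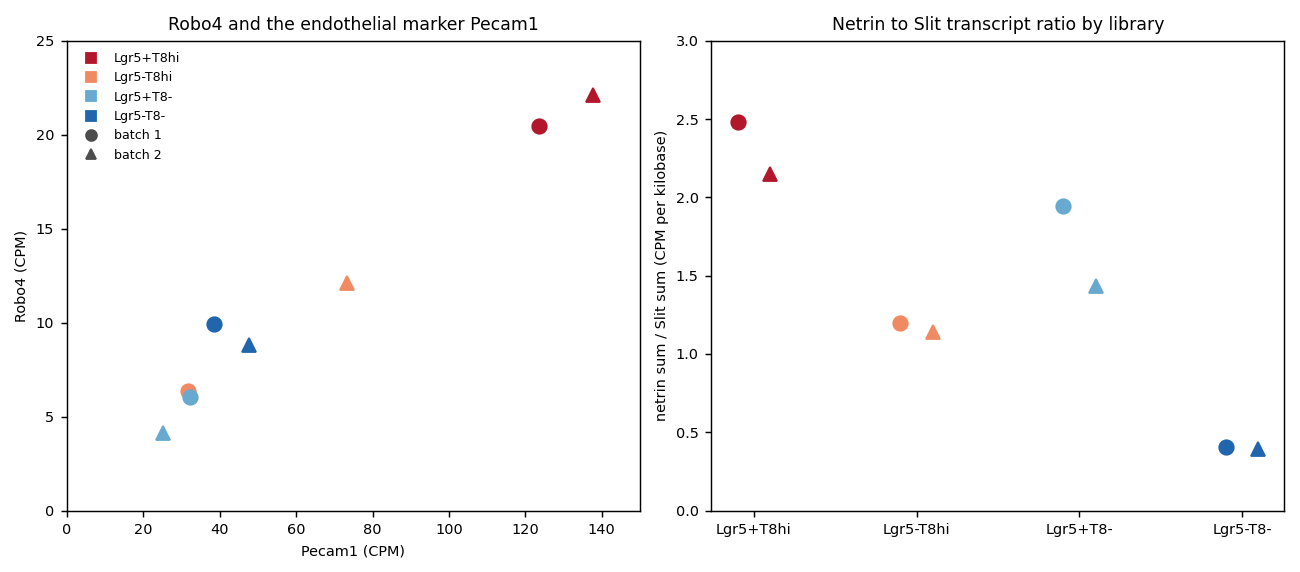
The left panel plots Robo4 against Pecam1, both in CPM, with 1 point per library; the Lgr5+T8hi libraries lie highest on both axes. The right panel plots, by population, the summed netrins over the summed Slits of each library (both in CPM per kilobase), from 0.393 and 0.407 in Lgr5-T8- to 2.15 and 2.48 in Lgr5+T8hi cells.

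The opposite course of the ligands can be read as a ratio. Summed netrin transcripts over summed Slit transcripts, both per length, came to 2.48 and 2.15 in Lgr5+T8hi, 1.94 and 1.44 in Lgr5+T8-, 1.19 and 1.14 in Lgr5-T8hi and 0.407 and 0.393 in Lgr5-T8- cells. The libraries of the 4 populations did not overlap in this ratio, which was formed after the levels had been seen and was not tested.

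Among Eph receptors, Epha4 and Ephb1 fell with Tspan8. Epha4 (chromosome 1, 77367182 to 77515107), which binds ephrins of both classes, was at 66.1 and 57.5 CPM in Lgr5+T8hi, 88.3 and 73.8 CPM in Lgr5-T8hi, 92.6 and 86.7 CPM in Lgr5+T8- and 136 and 111 CPM in Lgr5-T8- cells. Lgr5+T8hi was lowest and Lgr5-T8- highest, with both other populations between them and overlapping each other. The Tspan8 effect was -0.57 ± 0.06 and the Lgr5 effect -0.42 ± 0.06 (edgeR adjusted p = 8.61e-05 and 0.00119). The Tspan8 difference was not detectably different between Lgr5+ and Lgr5- cells (0.07 ± 0.13, edgeR adjusted p = 0.909).

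Ephb1, a receptor for ephrin-Bs, stood at 61.0 and 53.2 CPM in Lgr5+T8hi, 63.3 and 58.0 CPM in Lgr5-T8hi, 84.4 and 77.4 CPM in Lgr5+T8- and 80.2 and 71.2 CPM in Lgr5-T8- cells. Every T8hi library lay below every T8- library, and the Lgr5 classes overlapped. The Tspan8 effect was -0.41 ± 0.06 (edgeR adjusted p = 6.35e-04) and the Lgr5 effect 0.00 ± 0.06 (edgeR adjusted p = 0.982).

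Epha3 went the other way at a low level, with 1.27 and 1.21 CPM in Lgr5+T8hi, 1.29 and 0.852 CPM in Lgr5-T8hi, 0.220 and 0.399 CPM in Lgr5+T8- and 0.576 and 0.515 CPM in Lgr5-T8- cells. All T8hi libraries lay above all T8- libraries. Its Tspan8 effect was 1.49 ± 0.29 (edgeR adjusted p = 0.00407) on counts of 7 to 47 per library. The fibroblast marker sum given above was also higher in every T8hi than in every T8- library, and its part in this result was not tested.

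Epha7 fell with Lgr5 by 0.31 ± 0.07 on the log2 scale (edgeR adjusted p = 0.0153), with 31.2 and 21.6, 42.6 and 25.2, 33.2 and 22.2, and 39.6 and 27.5 CPM in the order of populations used above. The Lgr5 classes overlapped, batch 2 was lower in all 4 populations (-0.60 ± 0.07), and the call was lost without either Lgr5+T8hi library, Lgr5-T8hi replicate 1 or Lgr5+T8- replicate 1 (edgeR adjusted p = 0.0504 to 0.162). Epha1 was called in 1 comparison, Lgr5+T8- below Lgr5-T8- cells (-0.42 ± 0.12, edgeR adjusted p = 0.0439). It was at 23.2 and 22.4 CPM in the former and 26.3 and 35.6 CPM in the latter, and at 23.2 and 26.6 CPM in Lgr5+T8hi and 21.8 and 24.8 CPM in Lgr5-T8hi cells. The Lgr5-T8- libraries overlapped those of Lgr5+T8hi, and the call was lost when any library except Lgr5+T8- replicate 1 or Lgr5-T8- replicate 1 was left out (edgeR adjusted p = 0.0651 to 0.311) and with DESeq2 (0.0526). Of the Epha1 exon bases, 6.01% are shared with Zyx on the other strand (154 to 253 CPM, highest in Lgr5-T8- cells), and the strand setting of the counting is not stated.

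The remaining Eph receptors tested were called in none of the 7 comparisons. Epha2, the dominant one, ran from 619 to 1009 CPM with effects of -0.16 ± 0.07 for Tspan8 and -0.10 ± 0.07 for Lgr5. For Ephb3, a target of Wnt signalling in the intestine as Lgr5 is, they were -0.03 ± 0.08 and 0.05 ± 0.08, at 99.0 to 129 CPM. Ephb4, the partner of ephrin-B2 in vessels, was at 77.6 to 102 CPM, with effects of 0.16 ± 0.06 and 0.20 ± 0.06. All 4 of its Lgr5+ libraries lay above all 4 Lgr5- libraries, but the Lgr5 effect missed the threshold (edgeR adjusted p = 0.0648, 0.0435 without Lgr5-T8- replicate 2). For Ephb6 the effects were -0.04 ± 0.06 and -0.03 ± 0.06, and for Ephb2 -0.23 ± 0.10 and -0.30 ± 0.10.

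The ephrins split by gene. Efna1 (chromosome 3, 89271730 to 89280951), the main ligand of Epha2, was at 127 and 107 CPM in Lgr5+T8hi, 107 and 92.8 CPM in Lgr5-T8hi, 112 and 82.7 CPM in Lgr5+T8- and 71.3 and 67.6 CPM in Lgr5-T8- cells. The Lgr5-T8- libraries were below all others, which overlapped. The Tspan8 effect was 0.39 ± 0.07 (edgeR adjusted p = 0.00251). The Lgr5 effect was 0.35 ± 0.07 (edgeR adjusted p = 0.0079), and it missed the threshold without replicate 1 of Lgr5+T8hi, Lgr5-T8hi or Lgr5+T8- cells (edgeR adjusted p = 0.0556 to 0.0793). The luminal marker sum was also lower in Lgr5-T8- than in the other populations within each batch, and its part in this result was not tested.

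Efnb2 (chromosome 8, 8617235 to 8661242), which encodes ephrin-B2, had the opposite course, with 92.0 and 79.5 CPM in Lgr5+T8hi, 114 and 97.4 CPM in Lgr5-T8hi, 124 and 95.3 CPM in Lgr5+T8- and 139.7 and 144 CPM in Lgr5-T8- cells. The Lgr5-T8- libraries were above all others and Lgr5+T8hi below. Its Tspan8 effect was -0.39 ± 0.07 (edgeR adjusted p = 0.00374) and its Lgr5 effect -0.34 ± 0.07 (edgeR adjusted p = 0.0124). Without either Lgr5+T8hi library, Lgr5-T8hi replicate 1 or Lgr5+T8- replicate 2, the Lgr5 effect missed the threshold (edgeR adjusted p = 0.0586 to 0.0775). Ephrin-B2 is also a gene of arterial endothelium, and the endothelial marker sums are given above; their part in this result was not tested.

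At lower levels, Efna2 stood at 7.81 and 9.27 CPM in Lgr5+T8hi, 7.36 and 8.28 CPM in Lgr5-T8hi, 7.56 and 5.78 CPM in Lgr5+T8- and 5.61 and 5.29 CPM in Lgr5-T8- cells. Efnb3 stood at 9.46 and 9.31, 7.25 and 8.18, 7.34 and 7.22, and 6.18 and 6.03 CPM in the same order. For both, Lgr5-T8- was lowest, and the Lgr5-T8hi and Lgr5+T8- libraries overlapped. They rose with Tspan8 by 0.43 ± 0.12 and 0.35 ± 0.10 (edgeR adjusted p = 0.036 and 0.0389). DESeq2 called neither (adjusted p = 0.0609 and 0.104). Without 1 library, the Efna2 call was kept only when Lgr5+T8- replicate 1 or Lgr5-T8- replicate 1 was left out (edgeR adjusted p = 0.0545 to 0.177 without any other), and the Efnb3 call only without Lgr5-T8- replicate 1 (0.0569 to 0.237). Efna3, Efna4, Efna5 and Efnb1 were called in none of the 7 comparisons. Efnb1, the most abundant ephrin-B, ran from 134 to 237 CPM with effects of 0.08 ± 0.07 and 0.20 ± 0.07, and the second passed the threshold without Lgr5-T8- replicate 1 (edgeR adjusted p = 0.0209).

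**Figure D4:**
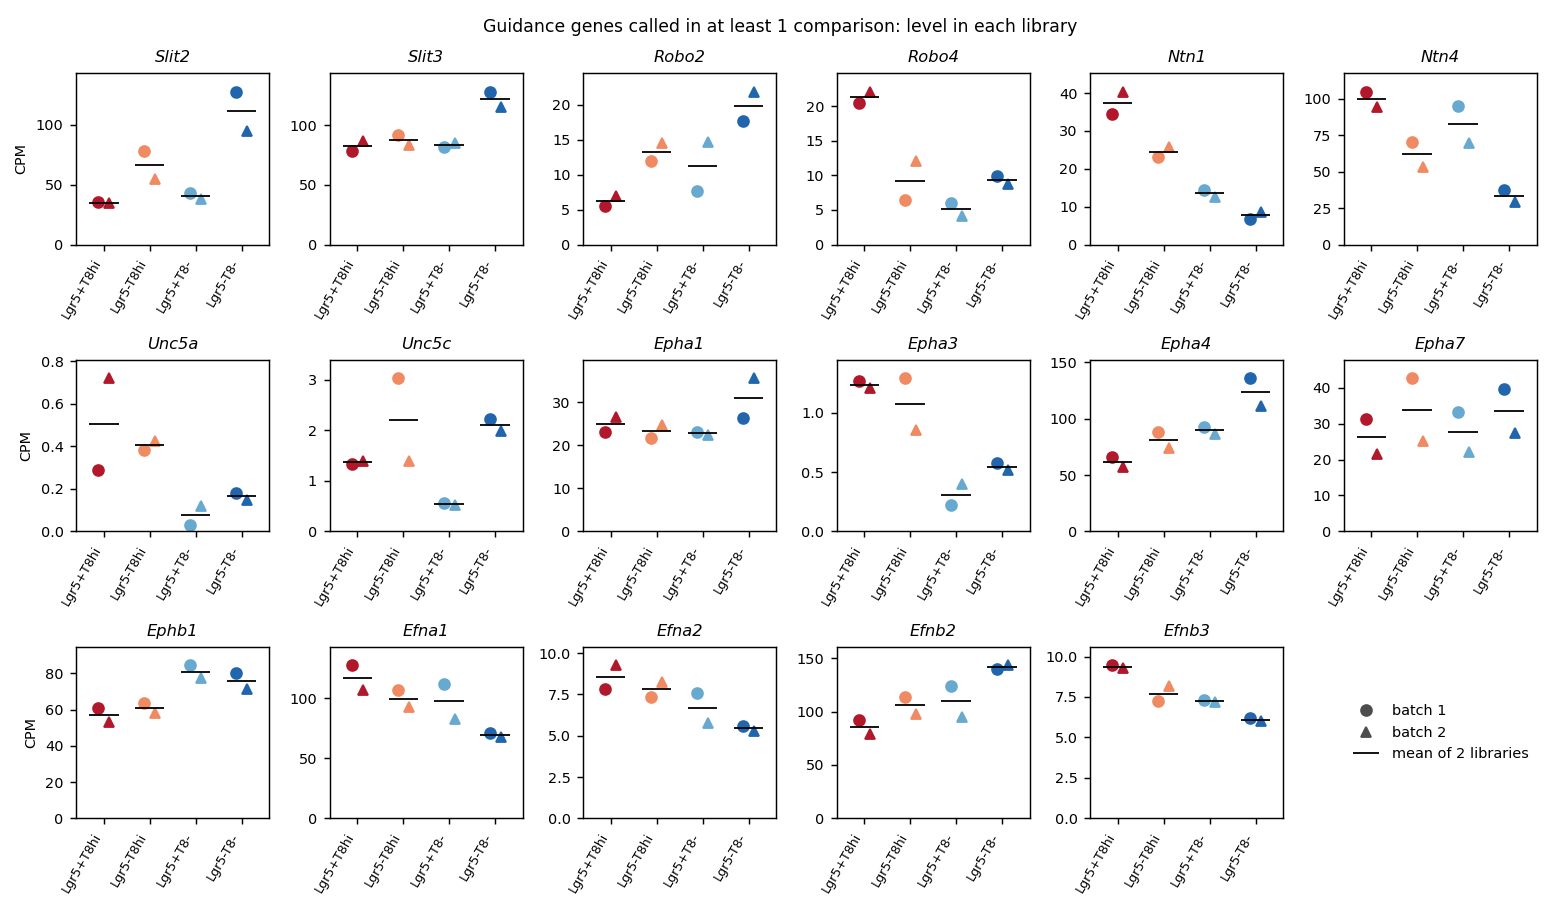
Each panel shows 1 of the 17 members called in at least 1 comparison, with its CPM in the 2 libraries of each population (circle, batch 1; triangle, batch 2) and their mean (line). The Ntn1 libraries form 4 separate levels from 6.85 to 40.4 CPM, and those of Slit2, Robo2, Epha4 and Efnb2 are highest in Lgr5-T8- cells.

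Set beside each other by population pair, the calls were unequal in number. Between Lgr5-T8hi and Lgr5-T8- cells 3 members rose and 6 fell (3.70% and 3.36% of all genes tested, 7.06% in all), and between Lgr5+T8hi and Lgr5+T8- cells 4 rose and 3 fell (7.27% and 2.17%, 9.44% in all). For Lgr5+ against Lgr5- cells, 3 rose and 7 fell within T8- (3.81% and 5.05%, 8.86% in all) and 2 rose and 3 fell within T8hi (2.29% and 1.05%, 3.34% in all). Ntn1, Robo2 and Epha4 were called in all 4 of these pairs, each in 1 direction. Leaving out any 1 library kept 4 of 9, 2 of 7, 3 of 10 and 0 of 5 of these calls, in the order given, and of the calls within T8hi those of Slit2, Robo2, Ntn1, Ntn4 and Epha4 were lost without at least 1 of the 4 T8hi libraries (edgeR adjusted p = 0.077 to 0.493). How many of all genes called in these pairs were kept in this way was not counted. The pairs share populations, so their calls are not independent of each other.

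Between batches, 3 members were higher and 8 lower in batch 2, 34.4% of those tested, which is near the share over all genes tested (16.0% and 16.9%, 32.9% in all). Ephb6 was higher by 0.52 ± 0.06 and Epha2 and Efnb1 were lower by -0.47 ± 0.07 each (edgeR adjusted p = 1.46e-04, 3.99e-04 and 4.85e-04). Each population had 1 library from each batch, so these shifts were balanced over the comparisons.

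Cytoplasmic partners, other ligands and relatives of these families were counted from 3 lists chosen by name. Earlier results of these data were known when the lists were chosen, so their shares are not independent of the data. The lists share genes, Nck1 in all 3 and Nck2, Abl1, Abl2, Fyn and Src each in more than 1, so the 3 counts are not separate. Of 20 Slit and Robo partners tested, 3 rose and 4 fell with Tspan8 and 1 rose and 1 fell with Lgr5, with medians of -0.07 and -0.05. That is 35.0% and 10.0% of the list, against 14.6% and 9.09% of all genes tested, so the Lgr5 count was near the background. Enah, an actin regulator of the Ena/VASP family that acts downstream of Robo, rose with both, by 0.99 ± 0.09 and 1.10 ± 0.09 (edgeR adjusted p = 2.42e-05 and 1.97e-05). Srgap1, a Robo-binding regulator of small GTPases, rose with Tspan8 by 0.66 ± 0.18, and the adaptor Nck1 by 0.25 ± 0.07. Flrt3 (-0.40 ± 0.07), the matrix receptor dystroglycan, Dag1 (-0.31 ± 0.08), and the adaptor Nck2 (-0.23 ± 0.06) fell with Tspan8, and Dag1 also with Lgr5 (-0.31 ± 0.08).

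Of 23 netrin receptor partners, other ligands and the netrin-G genes tested, 6 rose and 2 fell with Tspan8 and 5 rose and 1 fell with Lgr5, with medians of 0.001 and 0.05, which is 34.8% and 26.1% of the list against the same background. The actin-binding genes Ablim3 (0.97 ± 0.16) and Ablim1 (0.40 ± 0.07) and the Unc5 ligand Flrt2 (0.46 ± 0.09) rose with Tspan8. Mcam (0.55 ± 0.08), Ablim1 (0.34 ± 0.07) and Trim9, a ubiquitin ligase that binds Dcc (1.52 ± 0.29), rose with Lgr5. Ntng1, which encodes the membrane-anchored netrin-G1, a protein that does not bind the classical netrin receptors, fell with both, by -0.47 ± 0.06 and -0.37 ± 0.06.

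Of 35 Eph and ephrin partners tested, 6 rose and 5 fell with Tspan8 and 3 rose and 3 fell with Lgr5, with medians of -0.065 and -0.0043, or 31.4% and 17.1% of the list. The adaptor Grb10 rose by 1.34 ± 0.09 with Tspan8 and 0.50 ± 0.09 with Lgr5, and Ngef, the Eph-bound exchange factor ephexin, by 1.00 ± 0.15 and 0.99 ± 0.15. Rgs3, which links ephrin-Bs to G proteins, rose with Tspan8 (0.56 ± 0.12), and the Src-family kinase gene Fyn with Lgr5 (0.27 ± 0.06). The Rac activator gene Tiam1 (-0.43 ± 0.08 and -0.36 ± 0.08) and Grip1, a scaffold that binds ephrin-Bs (-0.50 ± 0.13 and -0.53 ± 0.13), fell with both. Adjusted p-values of the partner genes named in these 3 paragraphs were at most 0.0391 (edgeR).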

How the data were processed

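RNA from FACS-sorted mammary basal cells was sequenced single-end, per the labels. Each library has a deposited table of whole-number counts by Entrez gene, made by the authors and not normalised, with a length per gene. Among tools, featureCounts, limma 3.24.14, edgeR 3.10.2 and CASAVA 1.8.2 appear in the submitters' processing notes, without roles, with the build mm10 (GRCm38). The sources used here do not give the aligner or the strand setting. Symbols were matched for 25260 identifiers (RefSeq GRCm38.p6), and unmatched ones held 2.56 to 2.86% of a library's counts. The members and gene lists were chosen with earlier results of these data known.

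Counts were fitted with edgeR 4.0.16 (R 4.3.3): TMM, filterByExpr (minimum count 10), population plus batch, robust quasi-likelihood F-tests, 3 residual degrees of freedom, two-sided, Benjamini-Hochberg adjustment. CPM used TMM-adjusted sizes over the genes tested, and standard errors are the log2 fold change over the root of F. Within-batch differences used log2 CPM with a prior count of 2. Same-numbered libraries deviated together from their population means (r across genes 0.415 to 0.55, 6 pairs), so the labelled batch pairs them. Replicates of a population differed beyond sampling noise (chi-square per degree of freedom 36.8 to 58.4). They also differed in batch, which this value does not take out. Values in every library are given for members past the threshold in any comparison between populations, and from each partner list the 3 smallest adjusted p per direction are named, except 2 genes not reported here. Alternatives were RLE, 2 other filters, DESeq2 1.42.0, limma-voom 3.58.1, no batch term and each library left out.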

Additional observations from a re-analysis of the deposited data

Results flagged for a closer look

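For 1 member, Ntn4, the Tspan8 difference differed between Lgr5+ and Lgr5- cells by a test of the difference itself, with a log2 value of -0.61 (edgeR adjusted p = 0.0371). It was called by DESeq2 and limma-voom too, but not with RLE size factors (edgeR adjusted p = 0.0513), with the filter of 1 CPM in 4 libraries (0.0584) or in the fit without batch (0.961).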

How the results depend on the processing

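Without the replicate block, 4 members were called with Tspan8 (3 higher, 1 lower) and 3 with Lgr5 (1 lower), and 0 in the interaction (0 lower). The same fit called 3 within Lgr5+ (0 lower), 1 within Lgr5- (1 higher, 0 lower), 0 for Lgr5 within T8hi (0 higher, 0 lower) and 2 within T8- (1 higher, 1 lower). Over all genes tested it called 705 with Tspan8 in place of 2421 and 219 with Lgr5 in place of 1502, 1 in place of 421 in the interaction, and 512, 147, 0 and 208 in place of 1560, 1167, 552 and 1464 within Lgr5+, Lgr5-, T8hi and T8-.

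DESeq2 called 5 members higher with Tspan8, and 2101 of 15885 genes in either direction. It gave Unc5a no adjusted p there, while Efna2 and Efnb3 missed the threshold. In the interaction, DESeq2 and limma-voom called 2 members each (1 higher, Robo4), and 466 and 438 of 16526 genes. RLE size factors and the filter of 1 CPM in 4 libraries called 0 members each (0 lower), and 403 of 16526 and 335 of 14080 genes. For Tspan8 within Lgr5+, that filter left 2 higher, since Unc5a and Epha3 did not pass it and were not tested. The fit without a count filter gave 5 lower. Over all genes these fits called 1208 of 14080 and 1657 of 21643 in either direction.

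With each library left out in turn, the counts ran from 10 to 13 for Tspan8 (4 to 7 higher, 5 to 7 lower), 5 to 13 for Lgr5 (2 to 6 higher, 3 to 7 lower) and 0 to 1 for the interaction (0 to 1 higher, 0 to 1 lower). They ran from 2 to 11 for Tspan8 within Lgr5+ (1 to 6 higher, 1 to 5 lower), 4 to 10 within Lgr5- (2 to 5 higher, 2 to 7 lower), 1 to 7 for Lgr5 within T8hi (0 to 3 higher, 0 to 5 lower), 5 to 10 within T8- (1 to 5 higher, 4 to 7 lower) and 7 to 13 for batch (2 to 6 higher, 4 to 9 lower). Over all genes they ran from 1428 to 3374 for Tspan8, 726 to 2618 for Lgr5 119 to 584 for the interaction, 627 to 2136, 489 to 1943, 43 to 943 and 750 to 2354 within Lgr5+, Lgr5-, T8hi and T8-, and 3169 to 5490 for batch (5436 with all libraries). These fits take the single library left in a population to scatter as much as those of the other populations. The Lgr5 effect of Robo4 (0.18) changed sign without Lgr5-T8hi replicate 1 or Lgr5+T8- replicate 1 (range over single libraries -0.0785 to 0.476) and in batch 2 alone (-0.10). The cause of these shifts was not tested. Ntn1 for both markers, Epha4 for Tspan8, and Slit2 and Ntn4 for Lgr5 passed the threshold under every alternative run. Epha3 for Tspan8 passed it under each alternative that tested it, but the filter of 1 CPM in 4 libraries left it out. Each population had 2 libraries, and the fit had 3 residual degrees of freedom. For members under 1 CPM, the standard error of the Tspan8 effect was 0.41 for Slit1, 0.47 for Unc5a and 0.49 for Epha8. Whether small differences of such members could be detected at this depth was not tested.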
